A study of Mus musculus with 15 samples.

Results

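Fatty acid synthesis and glucose use were followed through 9 genes, Pklr, Acly, Acaca, Fasn, Scd1, Elovl6, Me1, Thrsp and Srebf1, chosen by symbol from the 55984 gene symbols in the count table. They were measured in hepatocytes of adult male wild-type C57BL/6JJcl mice that were stained with Hoechst, a dye that binds DNA, and sorted live by flow cytometry. Cells with diploid DNA content formed 2n-whole (4 libraries) and cells with tetraploid content formed 4n-whole (4 libraries). The tetraploid gate was also divided by the peak height of the Hoechst signal into 4n-bottom (4 libraries), in which most cells held a pair of diploid nuclei, and 4n-top (3 libraries), which was enriched only in part for cells with a single tetraploid nucleus. All 15 libraries came from 4 mice, numbered in the sample titles, and no 4n-top library of mouse 1 was among them. The study gave an age range in weeks and a standard diet for its mice as a whole. The age, feeding state and isolation day of each mouse were not given in the sources used here. A difference between mice therefore cannot be told apart from a difference in age or between isolations.

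The liver turns surplus glucose into fat by a short chain of enzymes. Glycolysis ends in pyruvate, mitochondria export its carbon as citrate, citrate is split to acetyl-CoA in the cytosol, and acetyl-CoA is carboxylated and condensed to palmitate, which is then lengthened and desaturated before it enters triglycerides. In fed liver the chain is driven by insulin through the transcription factor SREBP-1c and by carbohydrate through ChREBP, and it falls in fasting, so that its genes are known for moving together.

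The stretch just before the transcription start is shown for 4 of the members, because regulators of lipogenesis are known to act there. These 4 windows were picked among those that hold a CCAAT box. The windows of the downstream Me1 start and of the most upstream Srebf1 start also hold a CCAAT box and are not shown. The windows of Acly, Acaca and Elovl6, the upstream starts of Pklr and Me1 and the middle start of Srebf1 hold none of the motifs searched, and they are not shown. Promoter sequences were from RefSeq on GRCm38.p6, where 8 of the 9 members had an entry, with 12 start sites in all. Scd1 was without an entry. The 250 bases before each start were searched on both strands. The CCAAT box, the letters read by the factor NF-Y, stood before 6 of the 12 starts, in 5 of the 8 members, and in 33.8% of all 32851 promoters. The E-box CACGTG was found in none of the 12 (6.02% of all promoters), and neither was TCACNCCAC, a form of the sterol response element (1.05%). The layout known for ChREBP, a pair of E-box half-sites (CACG and CGTG, 9 bases apart), stood before 1 start, the downstream start of Pklr, and in 0.219% of all promoters. Capitals mark the CCAAT box in either orientation and, in Pklr, this layout. The adjoining CCAAT boxes of Fasn overlap on opposite strands. The regions are chr11:120824548-120824797, minus strand, for Fasn; chr7:97417551-97417800, minus strand, for Thrsp; chr11:60210472-60210721, minus strand, for the most downstream of 3 Srebf1 starts, inside the gene; and chr3:89136373-89136622, plus strand, for the downstream of 2 Pklr starts, also inside the gene. The letters are a description of these windows and no measure of binding.
Fasn: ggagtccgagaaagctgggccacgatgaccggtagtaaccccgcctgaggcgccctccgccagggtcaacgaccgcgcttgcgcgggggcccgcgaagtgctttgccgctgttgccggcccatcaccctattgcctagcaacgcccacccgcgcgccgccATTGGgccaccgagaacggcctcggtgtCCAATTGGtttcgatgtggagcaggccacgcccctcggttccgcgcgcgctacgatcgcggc
Thrsp: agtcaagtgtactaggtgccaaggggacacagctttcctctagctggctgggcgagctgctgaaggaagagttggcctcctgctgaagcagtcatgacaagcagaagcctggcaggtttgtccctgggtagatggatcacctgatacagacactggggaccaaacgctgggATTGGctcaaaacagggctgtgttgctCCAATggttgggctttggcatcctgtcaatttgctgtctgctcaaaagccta
Srebf1: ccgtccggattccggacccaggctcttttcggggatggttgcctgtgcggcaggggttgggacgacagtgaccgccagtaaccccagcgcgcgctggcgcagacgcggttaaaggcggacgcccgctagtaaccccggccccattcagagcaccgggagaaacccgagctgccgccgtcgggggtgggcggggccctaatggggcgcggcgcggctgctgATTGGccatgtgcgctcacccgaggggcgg
Pklr: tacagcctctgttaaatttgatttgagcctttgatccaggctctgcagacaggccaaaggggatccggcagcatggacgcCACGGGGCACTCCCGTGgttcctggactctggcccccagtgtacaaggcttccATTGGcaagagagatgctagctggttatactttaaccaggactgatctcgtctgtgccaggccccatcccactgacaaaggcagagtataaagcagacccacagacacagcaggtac

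Total counts ran from 22049498 to 42096421 per library, and all 9 members passed the filter on low counts with 17488 genes tested. Values are CPM (counts scaled to a library total of 1000000) after TMM scaling, which give a gene's share of the RNA in a library, not its amount per cell. In such bulk samples, fewer cells of a type and less RNA per cell cannot be told apart. Hepatocyte markers were abundant in every library, and adipocyte markers, which would bring Fasn, Scd1 and Thrsp with them, summed to at most 1.63 CPM. The 4n-whole library of mouse 2 stood apart. It was the shallowest, it had the lowest share of mitochondrially encoded counts (8.84%), and it held the highest Fasn and Srebf1 of all libraries. Results of the 9 members that rest on it are therefore given with and without it. Fold changes of single genes outside the 9 are given with it only.

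The 9 genes together followed the mouse. They took 1.46% to 1.57% of all counts in the 4 libraries of mouse 2, 1.11% to 1.17% in the 3 of mouse 1, 0.868% to 0.948% in the 4 of mouse 4, and 0.596% to 0.838% in the 4 of mouse 3. These ranges did not overlap. Across populations they did, with 0.596% to 1.46% in 2n-whole and 0.758% to 1.52% in 4n-whole. Scd1 alone made up 0.446% to 1.10% of the counts. Mouse 2 had the highest mean of all 9 genes, and mouse 3 the lowest of 8, the exception being Me1, which was lowest in mouse 1. For Fasn the place of mouse 2 rests on its 4n-whole library (2857 CPM), without which mouse 1 had the highest mean. Mouse 1 lay above mouse 2 in 2n-whole (1628 against 1622 CPM) and in 4n-bottom (2272 against 2016 CPM).

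**Figure D1:**
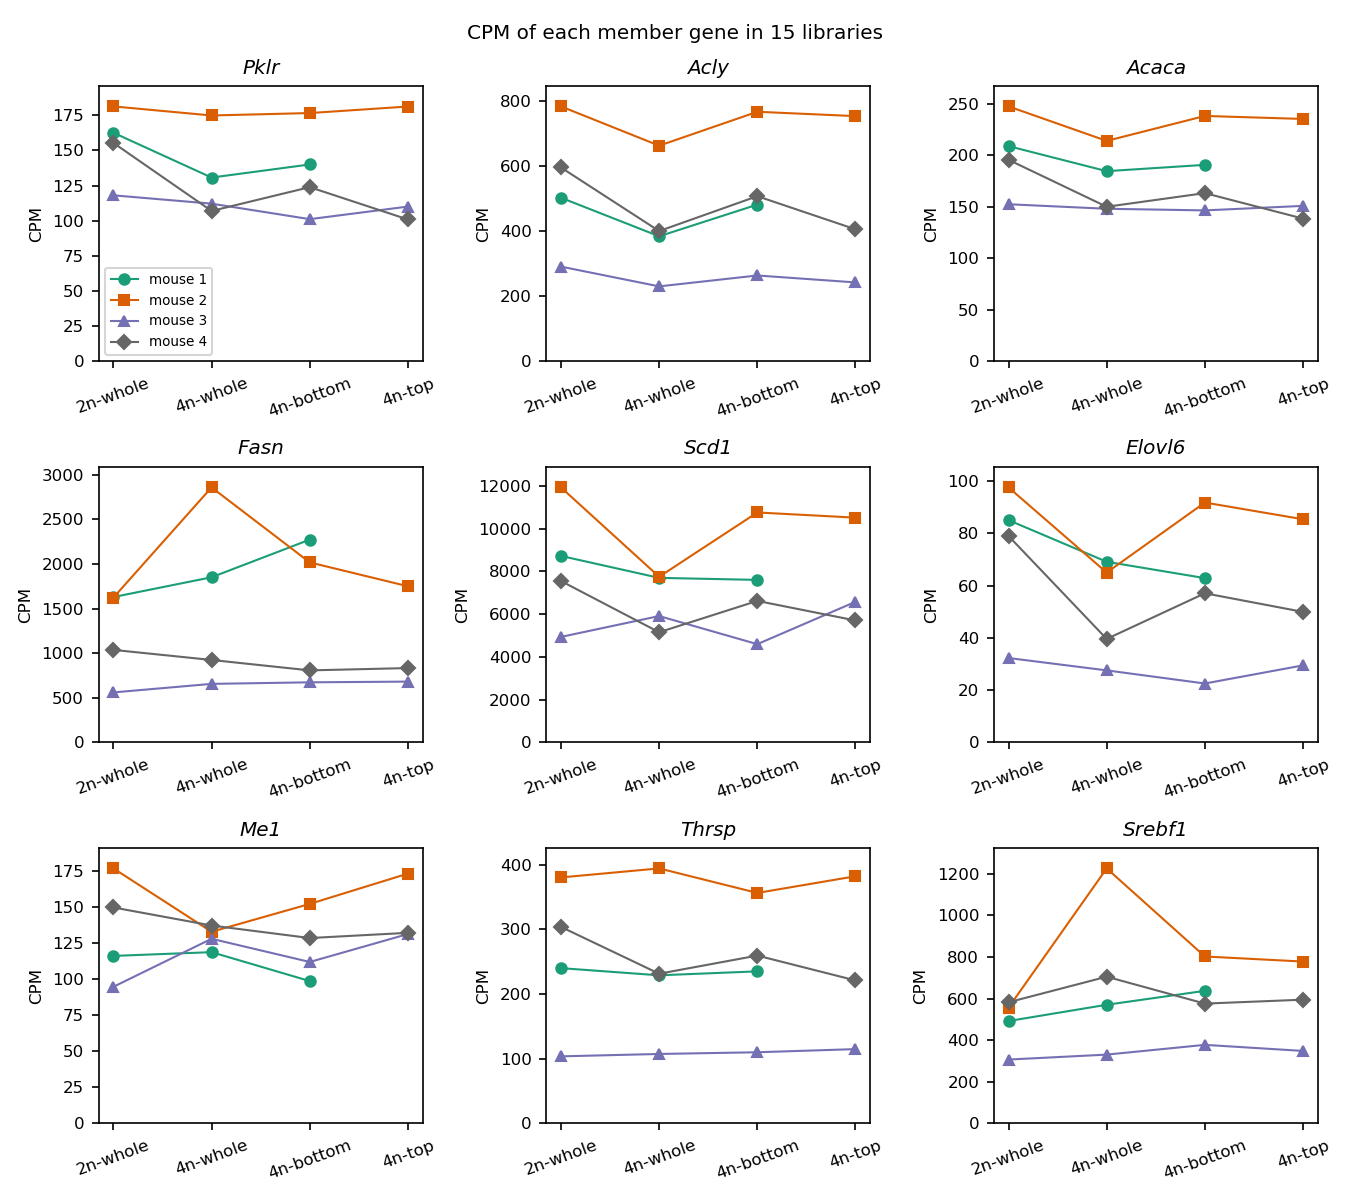
Level of each member gene in CPM (vertical axis, from 0) in the 4 sorted populations, with 1 point per library and a line joining the libraries of a mouse. Mouse 2 has the highest mean in every panel and mouse 3 the lowest in all but Me1, but lines cross in several panels. For Fasn in 4n-bottom, mouse 1 (2272 CPM) lies above mouse 2 (2016 CPM). The highest Fasn mean of mouse 2 rests on its 4n-whole library, without which mouse 1 is highest. Srebf1 and Fasn peak in the 4n-whole library of mouse 2 at 1226 and 2857 CPM.

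All 9 members differed between mice at an adjusted p under 0.05 in edgeR's quasi-likelihood F test of the mouse terms, against 19.2% of all genes tested. Among the 2246 genes at least as abundant as Elovl6, the lowest member, that share was 44.9%. This test sets 4 animals against the spread between their own libraries, so it speaks of these livers and their isolations and not of mice at large. The highest mouse mean was 1.43 to 3.47 times the lowest (median 2.47), whereas the highest population mean was 1.07 to 1.46 times the lowest (median 1.25). These population means are not balanced, since 4n-top lacks mouse 1. Over mice 2 to 4 alone, the highest population mean was 1.10 (Thrsp) to 1.58 (Elovl6) times the lowest.

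Thrsp, a small nuclear protein that promotes lipogenesis and is induced by carbohydrate and thyroid hormone, kept its level within a mouse most closely. It measured 240, 229 and 235 CPM in 2n-whole, 4n-whole and 4n-bottom of mouse 1. Mouse 2 gave 380, 394 and 356 CPM in these populations, and 382 CPM in 4n-top. Mouse 3 gave 104, 107, 110 and 115 CPM in the same order, and mouse 4 gave 304, 231, 260 and 221 CPM. The libraries of mouse 2 lay above all others and those of mouse 3 below all others, in every population, while mice 1 and 4 overlapped. The mouse accounted for 97.7% of the variance of its log2 CPM and the population for 0.312% (F = 121, adjusted p = 7.56e-13).

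Acly, ATP citrate lyase, which makes cytosolic acetyl-CoA from citrate, showed the same order. Mean levels were 457 ± 63.2 CPM in mouse 1 (SD, n = 3 libraries), 742 ± 54.0 in mouse 2 (n = 4), 257 ± 26.7 in mouse 3 (n = 4) and 478 ± 93.1 in mouse 4 (n = 4), with an adjusted p of 1.89e-12 in the edgeR test. Fasn, fatty acid synthase, had its mice in another order. Mouse 1 (1917 ± 327 CPM, SD, n = 3) and mouse 2 (2061 ± 555, n = 4) were close, and mouse 4 (900 ± 104, n = 4) lay nearer to mouse 3 (643 ± 56.0, n = 4). Each of the 7 Fasn libraries of mice 1 and 2 was above each of the 8 of mice 3 and 4 (lowest 1622 against highest 1037 CPM). Elovl6, which lengthens palmitate to stearate, averaged 72.3, 84.9, 28.0 and 56.4 CPM in mice 1 to 4, a 3.04-fold span. Srebf1, the gene of SREBP-1, averaged 567, 841, 341 and 615 CPM, a 2.47-fold span.

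The mouse spans were smaller for the remaining members and still passed the test. Scd1, the desaturase that makes oleate, averaged 8003 ± 621, 10231 ± 1769, 5502 ± 906 and 6253 ± 1052 CPM in mice 1 to 4 (SD). Pklr, liver pyruvate kinase, spanned 1.62-fold and Acaca, the acetyl-CoA carboxylase whose product is malonyl-CoA, 1.56-fold. Me1, malic enzyme, a source of NADPH for the synthase, varied least, with 1.43-fold between mice 2 and 1 (F = 8.37, adjusted p = 0.00479), and its lowest library in mouse 2 (133 CPM) lay just above the highest in mouse 3 (131 CPM). With mouse 2 and mouse 3 picked after their values were seen, all libraries of mouse 2 exceeded all of mouse 3 in 9 of 9 members, as in 7.27% of all genes tested.

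**Figure D2:**
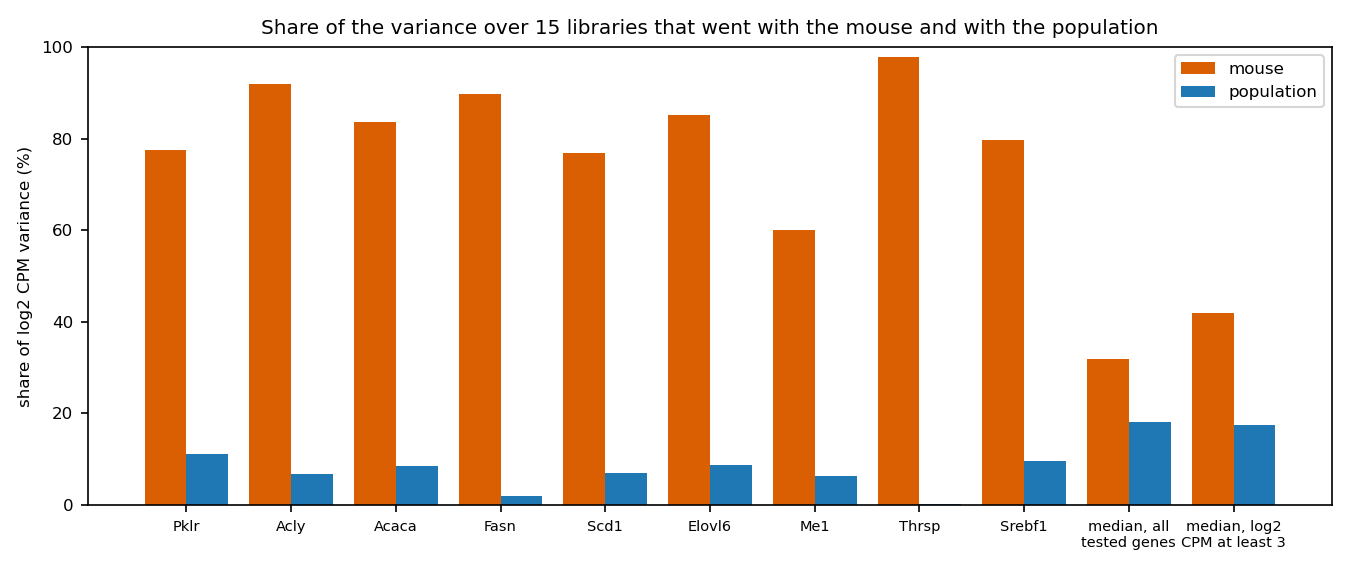
Share of the variance of log2 CPM over 15 libraries (vertical axis, %) that went with the mouse (orange) and with the population (blue), each after the other was taken out, per member gene and as the median over all genes tested and over those with mean log2 CPM of at least 3. The mouse share of the members ran from 60.1% (Me1) to 97.7% (Thrsp). Its median was 31.9% over all genes tested and 41.9% over those with mean log2 CPM of at least 3. The population share was at most 11.1% (Pklr), and its medians over the same 2 sets were 18.1% and 17.4%.

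After the method for sorting these cells was set up, the study asked whether ploidy, or the number of nuclei at the same ploidy, goes with expression. For these genes the change between 2n-whole and 4n-whole was small and not in one direction. Elovl6 was lower in 4n-whole, by 0.52 on the log2 scale, the only member past both limits (adjusted p under 0.05 and a log2 fold change beyond 0.5), where 3.47% of all genes tested were called. Acly was also lower and Srebf1 higher at an adjusted p under 0.05, but by less than the fold limit. The median log2 fold change over the 9 was -0.21, and over all genes tested -0.01. At an unadjusted p under 0.05 stood 7 of the 9, as did 20.4% of all genes tested, 5 of them lower and Srebf1 and Fasn higher in 4n-whole.

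Elovl6 measured 85.0, 97.5, 32.3 and 78.9 CPM in 2n-whole of mice 1 to 4, and 69.1, 64.9, 27.5 and 39.6 CPM in 4n-whole. It was lower in 4n-whole in each of the 4 mice, most in mouse 4, although the groups overlapped because mouse 3 was low in both. The log2 fold change was -0.52 (SE 0.12, 95% interval -0.77 to -0.27, adjusted p = 0.0113). Without mouse 4 it was -0.37 (adjusted p = 0.235), and without the 4n-whole library of mouse 2 it was -0.46 (adjusted p = 0.0418), which is under the fold limit, so either omission ends the call.

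Acly measured 503, 784, 291 and 596 CPM in 2n-whole of mice 1 to 4, and 385, 663, 231 and 401 CPM in 4n-whole. All 4 mice were lower in 4n-whole, by 0.24 to 0.57 on the log2 scale, and the groups again overlapped across mice. The log2 fold change was -0.39 (SE 0.08, 95% interval -0.56 to -0.22, adjusted p = 0.00549), and without mouse 4 it was -0.33 (adjusted p = 0.136).

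Srebf1 measured 492, 557, 307 and 583 CPM in 2n-whole of mice 1 to 4, and 571, 1226, 331 and 705 CPM in 4n-whole. It was higher in 4n-whole in each mouse, by 0.11 to 0.28 in mice 1, 3 and 4 and by 1.14 on the log2 scale in mouse 2. The log2 fold change was 0.44 (SE 0.12, 95% interval 0.20 to 0.68, adjusted p = 0.0243). Without the 4n-whole library of mouse 2 it was 0.25 (adjusted p = 0.154). Fasn, a target of SREBP-1, measured 1628, 1622, 560 and 1037 CPM in 2n-whole and 1850, 2857, 656 and 924 CPM in 4n-whole. It was higher in 3 of 4 mice, with a log2 fold change of 0.27 (SE 0.12, adjusted p = 0.199) that was 0.09 without that library.

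The remaining members did not pass the test. Pklr had a log2 fold change of -0.25 (95% interval -0.45 to -0.05, adjusted p = 0.134) with lower values in 4n-whole in all 4 mice, and Acaca one of -0.21 (-0.39 to -0.03, adjusted p = 0.175), also lower in all 4. Scd1 had -0.27 (-0.49 to -0.05, adjusted p = 0.148), and mouse 3 went the other way. The intervals of Thrsp (-0.28 to 0.09) and Me1 (-0.24 to 0.20) lay on both sides of 0. In each of the 6 comparisons, the groups overlapped for all 9 members.

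**Figure D3:**
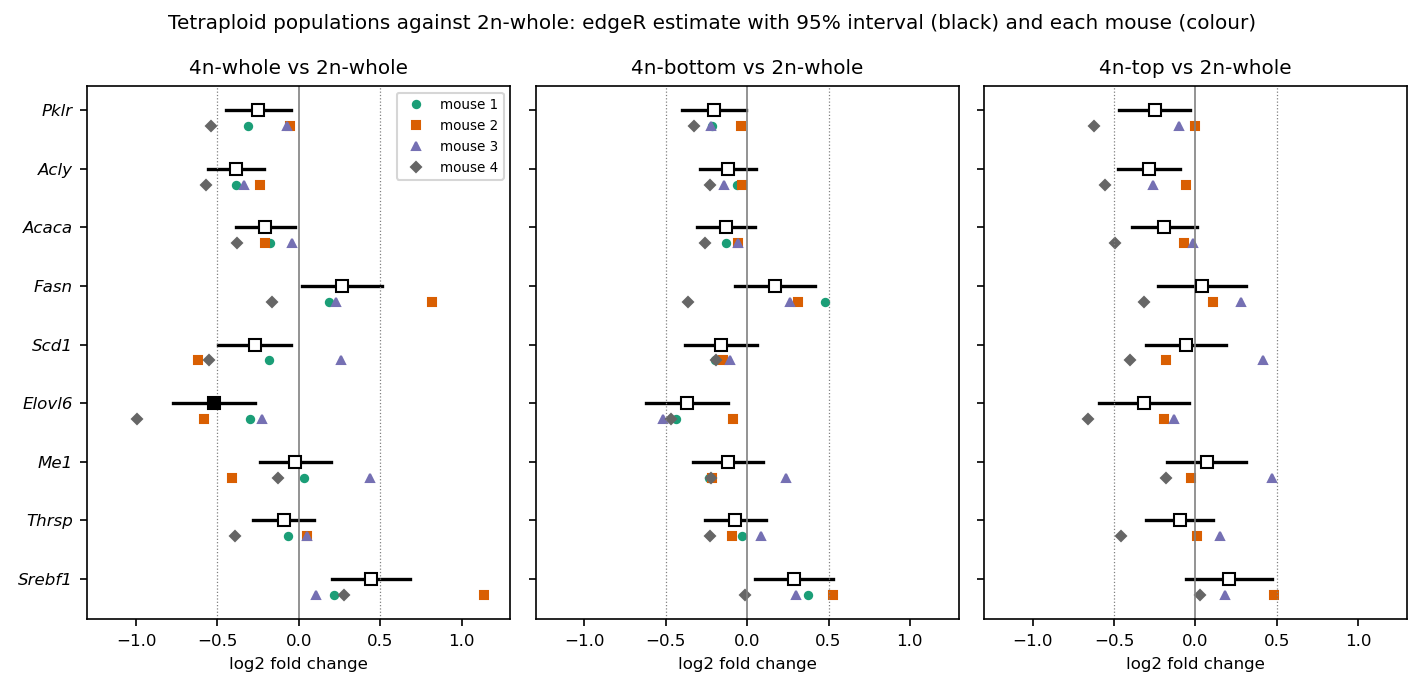
Log2 fold change of each member gene (rows) in 4n-whole, 4n-bottom and 4n-top against 2n-whole (horizontal axis; dotted lines at -0.5 and 0.5). Squares are edgeR estimates with their 95% intervals, filled where the gene was called, which was Elovl6 in 4n-whole, and coloured marks are the difference within each mouse. Elovl6 and Acly lie to the left and Srebf1 to the right in all 3 panels.

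Other features of the libraries moved with ploidy. Mitochondrially encoded genes took 20.5% to 26.2% of the counts in 2n-whole, 8.84% to 18.5% in 4n-whole, 12.2% to 23.6% in 4n-bottom and 11.9% to 13.0% in 4n-top. All 8 pericentral hepatocyte markers were called higher in 4n-whole than in 2n-whole, their sum being 568 to 849 CPM in 2n-whole and 883 to 3042 CPM in 4n-whole, where mouse 2 was lowest. Of these 8, 5 were also called higher in 4n-bottom and 6 in 4n-top against 2n-whole. Of all genes tested, edgeR called 3.47% in 4n-whole, 0.463% in 4n-bottom and 0.961% in 4n-top, each against 2n-whole. Of 8 periportal markers, 7 had negative values in 4n-whole against 2n-whole and 2 were called lower, their sum being 10190 to 13970 CPM in 2n-whole and 8582 to 11610 CPM in 4n-whole. Cholangiocyte markers summed to 34.6 to 47.4 CPM in 2n-whole and to at most 31.2 CPM in 4n-whole, and 2 of 4 tested were called lower in 4n-whole. After sorting, 2n cells were also spun harder and for longer than 4n cells. The part of these features in the changes of the 9 genes was not tested.

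In 4n-bottom against 2n-whole, edgeR called none of the 9 members (0.463% of all genes tested) and DESeq2 called none. An unadjusted p under 0.05 was reached by 3 of them and by 10.2% of all genes tested. Elovl6 measured 62.8, 91.7, 22.5 and 57.0 CPM in 4n-bottom of mice 1 to 4, below 2n-whole in all 4, with a log2 fold change of -0.37 (SE 0.12, adjusted p = 0.25). Srebf1 measured 637, 803, 378 and 576 CPM, above 2n-whole in 3 of 4 mice (0.29, SE 0.12, adjusted p = 0.364). In 4n-top against 2n-whole none was called by either tool (edgeR called 0.961% of all genes tested), and 3 had an unadjusted p under 0.05, as did 11.3% of all genes tested. Elovl6 measured 85.3, 29.5 and 49.9 CPM in 4n-top of mice 2 to 4, a log2 fold change of -0.32 (SE 0.14, adjusted p = 0.358), Acly had -0.29 (adjusted p = 0.169) and Srebf1 0.20 (adjusted p = 0.594). The 3 comparisons share the 2n-whole libraries, so their like signs are not separate evidence. The medians over the members were -0.12 for 4n-bottom and -0.10 for 4n-top.

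Between tetraploid populations, where DNA content was the same, no member was called by edgeR or by DESeq2. In 4n-top against 4n-bottom, the comparison enriched for mononucleated against binucleated cells, log2 fold changes ran from -0.17 (Acly) to 0.19 (Me1) with a median of -0.05, and none had an unadjusted p under 0.05. Of all genes tested, edgeR called 0.0114% there and DESeq2 called 103 genes. Acly measured 754, 243 and 406 CPM in 4n-top and 767, 264 and 508 CPM in 4n-bottom of mice 2 to 4, lower in 4n-top in all 3. The 95% interval of each of the 9 members held 0, and differences within a member's own interval could not be resolved. The lowest bound was -0.40 (Fasn) and the highest 0.43 (Me1). The interval of Acly ran from -0.36 to 0.02 and that of Me1 from -0.05 to 0.43. In 4n-whole against 4n-bottom, edgeR called 0.00572% of all genes tested and DESeq2 called 114 of them. Acly was the 1 member with an unadjusted p under 0.05 there, at -0.27 (SE 0.08, adjusted p = 0.598) and lower in 4 of 4 mice. In 4n-top against 4n-whole, edgeR called 0% of all genes tested, 700 of which had an unadjusted p under 0.05, and DESeq2 called 93 of the genes tested. There the members ran from -0.24 (Srebf1) to 0.22 (Scd1), with none at an unadjusted p under 0.05. Without the 4n-whole library of mouse 2, Srebf1 was at -0.02 and Scd1 at 0.11.

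Set against transcript length, the order of the genes was the same in all populations except among Acly, Fasn and Srebf1. In 2n-whole, Scd1 stood at 1648 ± 577 CPM per kilobase (SD, n = 4), Thrsp at 201 ± 91.8, Acly at 123 ± 46.4, Fasn at 112 ± 47.8, Srebf1 at 112 ± 28.7, Pklr at 45.0 ± 7.73, Me1 at 32.2 ± 8.70, Acaca at 21.2 ± 4.12 and Elovl6 at 12.0 ± 4.65. Acly, Fasn and Srebf1 did not differ beyond their spread. In 4n-whole Srebf1 (163 ± 87.2) and Fasn (146 ± 92.5) stood above Acly (95.2 ± 40.7), within a spread as large as the gap. Lengths were those of the Ensembl canonical transcripts, and the isoform used in these cells was not measured.

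The members rose and fell together across libraries, less so once the mouse means were removed. Over 15 libraries, which share 4 mice, the 36 pairs of members had a median Pearson r of 0.796 on log2 CPM, from 0.263 (Fasn and Me1) to 0.982 (Pklr and Acaca). With the mouse means removed, the median was 0.36 and the range -0.707 to 0.923. Pklr, Acly, Acaca, Elovl6, Scd1 and Thrsp then still went together, with r from 0.464 (Acly and Scd1) to 0.923 (Pklr and Acaca). Srebf1 went with Fasn (0.855) and against Elovl6 (-0.707) and Scd1 (-0.706). Without the 4n-whole library of mouse 2, over 14 libraries, these last values were 0.675, -0.645 and -0.501. Fasn against the other 7 ran from -0.408 (Elovl6) to 0.339 (Thrsp) with that library and from -0.148 to 0.306, for the same genes, without it. They are descriptions of these libraries, which also share their depth and their sort. The mean z-score of the members (each gene scaled to its own spread), with the mouse means removed, was 1.61 in 2n-whole of mouse 4. It was -0.73 in 4n-whole and -0.97 in 4n-top of that mouse, and from -0.32 to 0.42 in all other libraries. How far the correlations with the mouse means removed rest on mouse 4 was not tested.

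**Figure D4:**
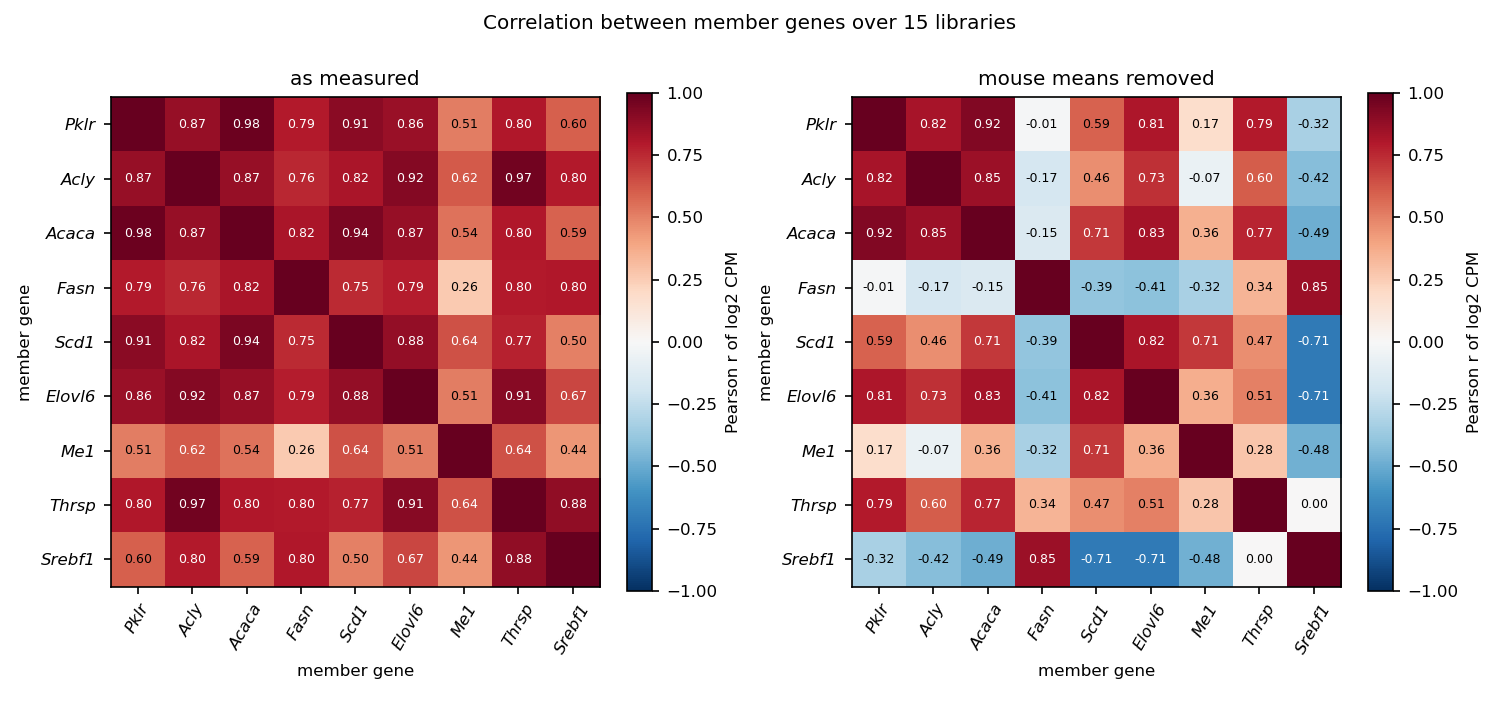
Pearson correlation of log2 CPM between member genes over 15 libraries, as measured (left) and with the mean of each mouse removed (right), with red for positive and blue for negative values. As measured all 36 values are positive, and with the mouse means removed Srebf1 and Fasn are each negative against 6 of the other 7 members while their own value is 0.855. For Fasn this rests on the 4n-whole library of mouse 2, without which it is negative against 1 of the 7, Elovl6 (-0.148).

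Genes outside the pathway lists whose level was most like the mean of the 9 members were, as measured, Rnf213 (r = 0.954), Slc23a1 (0.94), Tap2 (0.931), Vcl (0.929) and Lgals3bp (0.929), out of 7271 candidates over 15 libraries. Over these candidates the median absolute r was 0.32. With the mouse means removed, they were Lrrc28 (0.884), Sqle (0.855), Stt3b (0.851), Slco2a1 (0.85) and Clu (0.847), where the median absolute r was 0.35. The part of mouse 4 in these last values was not tested either.

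Among 14 tested regulators of lipogenesis, 1 was called in 4n-whole against 2n-whole. Mlxipl, the gene of ChREBP, measured 332, 411, 307 and 352 CPM in 2n-whole of mice 1 to 4, and 501, 789, 361 and 557 CPM in 4n-whole. It was higher in 4n-whole in each mouse (log2 fold change 0.62, SE 0.11, adjusted p = 0.000816). Mlxipl was highest in the 4n-whole library of mouse 2, and a fit without that library is not given. Of 7 tested ChREBP-responsive genes, 2 were called higher, where 3.47% of all genes tested were called. They were Txnip (0.54, adjusted p = 0.00102), a brake on glucose uptake, and Rgs16 (1.06, adjusted p = 0.0263), a regulator of G-protein signals. All 7 had positive values with a median of 0.28, against 49.3% positive and a median of -0.01 over all genes tested. An unadjusted p under 0.05 was reached by 3 of the 7 and by 20.4% of all genes tested. Rgs16 was low, at 1.25 to 6.35 CPM in these libraries, and another of the 7 was at most 0.746 CPM. The 9 members, of a chain that ChREBP is also known to drive, did not share a sign. Fasn (0.27) and Srebf1 (0.44) were positive. The others, Pklr, Acly and Elovl6 among them, had negative values, and the intervals of Thrsp and Me1 lay on both sides of 0.

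Of 14 other elongases, desaturases and acyl-CoA synthetases, Elovl3, which makes very long saturated chains, was called higher in 4n-whole (1.27, SE 0.14, adjusted p = 9.87e-07), in 4n-bottom (0.88, adjusted p = 0.000723) and in 4n-top (1.39, adjusted p = 2.55e-06) against 2n-whole. It measured 100, 148, 83.1 and 56.3 CPM in 2n-whole and 292, 216, 219 and 181 CPM in 4n-whole of mice 1 to 4, with no overlap. Elovl2 (-0.55, adjusted p = 0.0012), an elongase of polyunsaturated chains, and Acsl3 (-0.57, adjusted p = 0.0342) were called lower in 4n-whole. Against 2n-whole, edgeR called 3.47% of all genes tested in 4n-whole, 0.463% in 4n-bottom and 0.961% in 4n-top. Elovl6 and Elovl3, both elongases of saturated chains, thus differed in sign.

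Of 22 tested genes of glycolysis and fructolysis, Pfkfb3 (1.04, adjusted p = 0.00813) was called higher in 4n-whole, and Slc2a2, the main glucose transporter of hepatocytes (-0.65, adjusted p = 0.00164), and Pfkp (-2.12, adjusted p = 0.0234) lower. In 4n-whole against 2n-whole, 3.47% of all genes tested were called. Pfkp and Pfkfb3 were low throughout, at 0.160 to 3.74 and 1.61 to 8.98 CPM in these libraries. Of 15 genes of insulin signalling and the fasting response, Igfbp1 (0.80, adjusted p = 2.25e-05) and Pdk4 (0.79, adjusted p = 0.00928) were called higher in 4n-whole, and Ppargc1a (-0.59, adjusted p = 0.00682) lower. The called genes of this list thus went both ways, where 3.47% of all genes tested were called. Igfbp1 was also called higher in 4n-top against 2n-whole (0.65, adjusted p = 0.00167), where 0.961% of all genes tested were called. In any of the 6 comparisons, edgeR and DESeq2 called none among 7 partners of the carboxylase, 15 genes supplying citrate, acetyl-CoA and NADPH or 15 of triglyceride assembly and lipid droplets. In 4n-whole against 2n-whole, 3 of each list had an unadjusted p under 0.05, as did 20.4% of all genes tested. In other lists DESeq2 made 7 calls that edgeR did not. They were Pfkp in 4n-bottom (-2.12) and 4n-top (-2.58), Hk1, Pfkfb1 (0.56) and Ppargc1a (-0.57) in 4n-top, all against 2n-whole, and Hk3 and Elovl3 (0.51) in 4n-top against 4n-bottom. Hk1 and Hk3 were at or near 0 in 4n-top, so no fold is given for them. The edgeR adjusted p of these 7 ran from 0.0504 (Pfkp in 4n-top) to 1.

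Between mice, 19.2% of all genes tested and 44.9% of those at least as abundant as Elovl6 differed. The counts in the lists were 10 of 15 in triglyceride assembly, 10 of 15 in insulin signalling and the fasting response, 8 of 15 in citrate, acetyl-CoA and NADPH supply, 7 of 14 elongases and desaturases, 11 of 22 in glycolysis and fructolysis, 3 of 7 carboxylase partners, 3 of 7 ChREBP-responsive genes and 5 of 14 regulators. Of marker genes, 7 of 8 pericentral, 7 of 8 periportal, 5 of 8 hepatocyte and 5 of 6 endothelial ones differed. Fewer did among cholangiocyte (1 of 4), Kupffer (0 of 6), stellate (0 of 4) and leukocyte (0 of 1) markers. The pericentral sum in 4n-whole was 883 CPM in mouse 2 and 2836 to 3042 CPM in the others. It was also lowest in mouse 2 in 4n-bottom and 4n-top, and in mouse 1 in 2n-whole. The part of this in the mouse differences of the members was not tested. A few pathway genes are named with their values, chosen after these were seen. Acacb, the carboxylase at the mitochondrion, averaged 203, 283, 95.2 and 139 CPM in mice 1 to 4, and Acss2, which makes acetyl-CoA from acetate, 88.5, 168, 67.7 and 80.7 CPM, with mouse 2 highest and mouse 3 lowest as in most members. Igfbp1 had the opposite order, with 131, 59.2, 241 and 159 CPM. Angptl8, a secreted protein known to rise with feeding, averaged 275, 322, 145 and 96.7 CPM, so that here mouse 4 was lowest. Mlxipl varied less, from 343 CPM in mouse 3 to 543 CPM in mouse 2.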

How the data were processed

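RNA from sorted hepatocytes was sequenced after library construction with a SMART-Seq stranded kit. Per the labels, the authors aligned reads to GRCm39 with STAR 2.7.11a and counted them per gene with featureCounts of Subread. The deposited values are raw counts per gene symbol in 15 libraries. The annotation, strand setting and handling of read pairs were not given in the sources used here. Of counts from 1 to 10, 74.2% to 81.4% per library were even, so single counts cannot be read as independent molecules. By GENCODE M39, 7 of the 9 members overlap a gene on the other strand, whose reads could not be told apart if counting ignored strand. The 4n-top library of mouse 1 was left out by the authors for RNA quality.

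The members and gene lists were chosen with earlier results of these data known. Counts were fitted in edgeR 4.0.16 (R 4.3.3) with filterByExpr, TMM, and population and mouse as terms (the replicate block, since the study adjusted for mouse), on all 15 libraries. Genes were called at a Benjamini-Hochberg adjusted p under 0.05 over all 17488 genes and an absolute log2 fold change above 0.5. The difference between mice was an F test of the 3 mouse terms. Libraries of the same mouse, paired by the number in the titles, had residual correlations of 0.0845 to 0.227. The p-values measure the spread between these libraries. CPM used TMM library sizes, and log2 CPM a prior count of 2. The rule for named genes was all members, up to 4 called genes per list, and the 5 genes most like the members' mean at a mean log2 CPM of at least 3. Acacb, Acss2, Angptl8 and genes called by DESeq2 alone fall outside it and were chosen after their values were seen. Alternatives used DESeq2 1.42.0, ComBat-seq (sva 3.50.0), other filters, size factors, no block, and omitted libraries. Without 4n-whole replicate 2 and without mitochondrial genes were chosen after the data were seen. The fits were tested on simulated data.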

Additional observations from a re-analysis of the deposited data

How the results depend on the processing

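With 4 mice and 15 libraries, small differences between populations could not be resolved, and what separates mice was not measured. All 9 members differed between mice under each of the 9 alternatives tried. In 4n-whole against 2n-whole, 1 member was called, and 0 without the replicate block, 3 with no fold limit, and 0 to 2 with a mouse or library left out: 0 without mouse 4 or the 4n-whole library of mouse 2, and 2, Elovl6 and Srebf1, without mouse 1 or mouse 3. In the other 5 comparisons no member was called under any alternative, and the medians of the members moved by less than the spread between mice. Over all genes, 607 were called in 4n-whole against 2n-whole, 40 without the pairing by mouse, 4606 with DESeq2 over the whole table (889 among the genes tested in edgeR), 1158 after ComBat-seq, 305 with only these libraries, 957 with no fold limit, 365 without mouse 2, 1025 without mouse 3, 244 without mouse 4 and 338 without the 4n-whole library of mouse 2; the cause was not tested.

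No value that was called changed sign. Signs of small uncalled log2 fold changes did when a mouse or a library was left out. In 4n-whole against 2n-whole the ranges were -0.163 to 0.0974 for Me1 and -0.149 to 0.00493 for Thrsp. In 4n-top against 2n-whole they were -0.0806 to 0.172 for Fasn (-0.156 without the replicate block), -0.0705 to 0.168 for Me1, -0.248 to 0.0869 for Scd1 and -0.201 to 0.0477 for Thrsp. In 4n-top against 4n-bottom they were -0.115 to 0.0202 for Acaca, -0.0601 to 0.161 for Elovl6 (-0.0909 without the replicate block), -0.118 to 0.0675 for Pklr, -0.07 to 0.248 for Scd1 and -0.0816 to 0.0713 for Thrsp. In 4n-whole against 4n-bottom they were -0.0826 to 0.237 for Fasn, -0.109 to 0.0159 for Pklr, -0.268 to 0.017 for Scd1, -0.0429 to 0.262 for Srebf1 and -0.0694 to 0.0286 for Thrsp (0.00113 without the replicate block). In 4n-top against 4n-whole they were -0.0575 to 0.0782 for Acaca (-0.00687 after ComBat-seq), -0.0229 to 0.159 for Me1, -0.0576 to 0.0516 for Pklr and -0.0614 to 0.0428 for Thrsp. Variance-stabilised values exchanged Lgals3bp for Gabbr2 and Stt3b for Pias1 among the genes most like the members.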
